A study of Mus musculus with 96 samples.

Results

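The response of the liver to sleep deprivation was set against the response of the kidney, gene by gene, in 48 of the 96 libraries of a mouse RNA sequencing series. All liver and all kidney libraries were taken, 24 from each organ, and the forebrain and cerebellum libraries were left out. The mice were wild-type (WT) C57BL/6 males, 6 to 8 weeks old, raised under 12 h of light and 12 h of darkness and sampled in constant darkness. Sleep-deprived mice (SD) were placed for 10 h of their resting phase in a slowly turning drum that forced them to walk, with food and water at hand, and control mice (CON) were left undisturbed. Organs were taken after the deprivation, at the next 6 circadian times (CT), 4 h apart from CT4 to CT24. Each time had 2 replicates, so that each organ had 12 CON and 12 SD libraries. In SD mice each CT also stands for a given time since the deprivation, and both cannot be told apart. Forced walking and loss of sleep come together in this model and cannot be told apart. Whether the liver and the kidney of the same replicate number came from the same mouse was not stated for these libraries, while the study describes the replicates of an organ as biological repeats.

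Liver and kidney share much of their chemistry. Both make glucose from lactate and amino acids, oxidise fatty acids and detoxify foreign compounds, and only the liver runs a full urea cycle and makes bile acids and most plasma proteins at high levels. Both organs also hold resident macrophages and dendritic cells, and almost every cell in them shows peptides on MHC class I molecules, whose genes are raised by interferon through the STAT and IRF transcription factors. MHC class II molecules are mostly made by dendritic cells, macrophages and B cells. Because mice eat and sleep at set times, keeping them awake can also change feeding, body temperature and corticosteroid levels, none of which was measured here.

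For each gene 3 values were estimated in a single fit over the 48 libraries, namely the log2 change between SD and CON in the liver, the same in the kidney, and the liver change minus the kidney change, each averaged over the 6 CT. The last value is called the organ difference below. A positive organ difference means that the liver change lay above the kidney change, which can come from a rise in the liver or from a fall in the kidney. Levels are given as CPM (counts scaled to a library total of 1000000), from the lowest over the median to the highest of 12 libraries. Log2 changes were computed after TMM scaling and are relative to the bulk of genes. A gene is said to have risen, fallen or differed when the edgeR quasi-likelihood test gave an adjusted p under 0.05 over all 18506 genes tested. In whole organs, fewer cells of a type and less RNA per cell cannot be told apart.

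The libraries held 32.0 to 48.9 M counts for the liver and between 32.2 and 58.5 M for the kidney. The organ labels matched the marker genes. The summed level of 22 hepatocyte secretory genes lay between 111908 and 146481 CPM in the liver and between 202 and 420.006 CPM in the kidney, and that of 16 proximal tubule genes lay between 43214.3 and 53401.4 CPM in the kidney and between 231 and 305 CPM in the liver. For 20 of the 24 kidney libraries and for 0 of the 24 liver libraries, the sample title and the other labels disagreed on the condition or the time, and the grouping followed the title. A library stood apart from its partner, the first SD replicate of liver at CT16. The log2 difference between the libraries of that group had an SD over genes of 0.52, against 0.284 to 0.369 in the other 11 liver groups.

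The organ difference passed the test for 1722 genes, or 9.31% of those tested. The liver change lay above the kidney change for 1011 genes (5.46%) and below it for 711 (3.84%). The larger of both changes was that of the liver for 1611 of the 1722 and that of the kidney for 111. In the same fit 4963 genes (26.8%) changed in the liver, 2664 up (14.4%) and 2299 down (12.4%). In the kidney 361 genes (1.95%) changed, and 355 of these (1.92%) were lower and 6 (0.0324%) higher under SD. These counts depended on the fit, as 2 fits added after seeing the data differed. With each organ fitted by itself, 3550 genes passed in the liver and 485 in the kidney, 33 of the latter higher. With limma and organ weights, 3958 and 507 passed, 58 of the latter higher. Among the 1722 genes, 1577 had changed in the liver and not in the kidney, 40 in the kidney and not in the liver, 22 in both and 83 in neither. The sign of the organ difference was the same at all 6 CT for 1402 genes, the median size was 0.33 on the log2 scale, and 110 genes exceeded 1. A further 3093 genes passed in the liver, did not pass in the kidney and did not pass for the organ difference, so that for these no difference between the organs was shown.

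The balance between positive and negative organ differences depended on the scaling. With library totals in place of TMM factors, 3091 genes passed, of which 186 were positive and 2905 negative, and the median organ difference of all genes went from -0.01 to -0.16. All 711 negative genes were still called with the same sign under library totals, but only 185 of the 1011 positive ones were, and 13 of the 1011 turned sign without being called. On the log2 scale, TMM factors of liver libraries averaged -0.21 ± 0.08 in CON and -0.34 ± 0.11 in SD, and those of the kidney 0.27 ± 0.05 and 0.28 ± 0.05 (SD, n = 12 libraries each). A small positive organ difference driven by the liver is therefore a difference relative to the other genes of the organ. Without the liver SD library that stood apart, 3011 genes passed, 1883 positive and 1128 negative, and 1685 of the 1722 were among them.

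**Figure D1:**
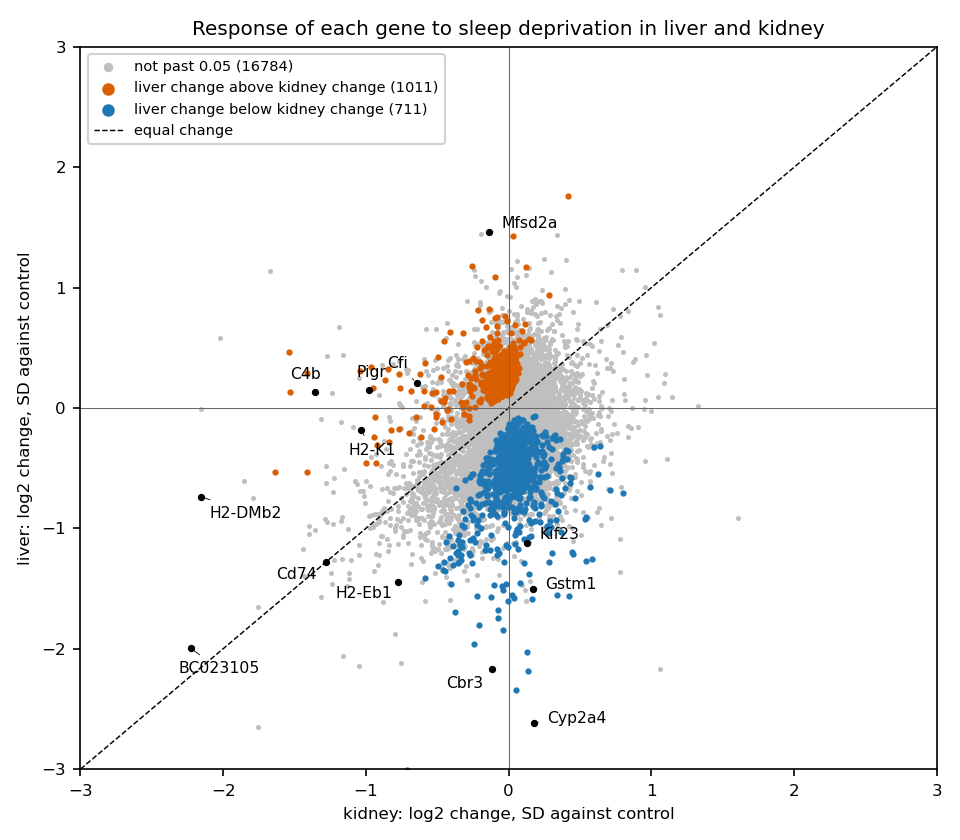
Each point is 1 of 18506 genes, with the log2 change under SD in the kidney on the horizontal axis and in the liver on the vertical axis; orange and blue points are the 1011 and 711 genes with a positive and a negative organ difference past an adjusted p of 0.05, and 7 genes lie outside the axes. Most coloured points spread along the vertical axis, while C4b, H2-K1, Pigr and H2-DMb2 lie far to the left and Cd74 lies on the line of equal change.

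Of the MHC class I genes 15 of 20 fell in both organs, of the interferon-induced GTPases 12 of 15 and of the interferon-stimulated genes 9 of 21, beside 1.54% of all genes, and where their organ difference was called the kidney estimate was the lower one. H2-K1 (ENSMUSG00000061232, chromosome 17, 33996017 to 34000347 on GRCm38), a classical class I heavy chain, ran from 329 over 434 to 785 CPM in kidney CON libraries and from 142 over 220 to 316 CPM in kidney SD libraries. In the liver it ran from 1330 over 1552 to 1771 CPM in CON and from 1057 over 1251 to 1440 CPM in SD. The kidney groups did not overlap and the liver groups did. The log2 change was -1.03 ± 0.10 in the kidney (SE, adjusted p = 6.26e-09) and -0.18 ± 0.10 in the liver (adjusted p = 0.171), and the organ difference was 0.85 ± 0.14 (adjusted p = 0.000216), with the same sign at 6 of 6 CT.

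H2-D1, the other classical heavy chain, ran from 371 over 466 to 702 CPM in kidney CON and from 174 over 264 to 370 CPM in kidney SD, again with no overlap. It fell in both organs, by 0.84 on the log2 scale in the kidney and by 0.28 in the liver, with an organ difference of 0.56 ± 0.13 (adjusted p = 0.00503). Of the 20 class I and antigen processing genes tested, 17 fell in the kidney and 16 in the liver, with median log2 changes of -0.60 and -0.40, against 0.01 and 0.00 over all genes. The organ difference passed for 5 of the 20, all positive, beside 5.46% of all genes. The other 3 were H2-T23, a nonclassical heavy chain (0.35), Tap2, a subunit of the peptide transporter (0.37), and Nlrc5, the transactivator of class I genes (0.55). Tap1, the partner of Tap2, had a log2 change of -1.04 in the kidney and -0.69 in the liver, and its organ difference of 0.35 had a 95% interval from -0.01 to 0.71. With library totals, 2 of the 20 genes were called positive and 1 negative. The call of H2-T23 was also lost without any of 5 single libraries and those of H2-T23 and Tap2 without some CT, at adjusted p-values up to 0.173 and 0.169. Erap1, a peptide-trimming enzyme chosen after its values were seen, had a log2 change of -0.43 in the kidney and -0.02 in the liver (organ difference 0.41).

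Among 21 interferon-stimulated genes, 16 fell in the kidney and 12 in the liver, beside 1.92% and 12.4% of all genes, with median log2 changes of -0.51 and -0.32. The organ difference passed for 5, all positive, beside 5.46% of all genes. Bst2, which tethers budding viruses to the cell, ran from 15.7 over 26.6 to 43.6 CPM in kidney CON and from 9.01 over 13.4 to 18.2 CPM in kidney SD. Its log2 change was -0.92 in the kidney and -0.31 in the liver, with an organ difference of 0.61 ± 0.16 (adjusted p = 0.0107). Parp9 and Dtx3l, which form an ADP-ribosylation and ubiquitin ligase complex, each had a log2 change of -0.51 in the kidney, against -0.08 and -0.05 in the liver. Their organ differences were 0.44 and 0.45. Stat2, a transcription factor of the type I interferon response (0.35), and Ifit1, which binds viral RNA (0.42), were the others, and the calls of both were the least stable of the 5. That of Ifit1 was lost without any of 13 single libraries (adjusted p up to 0.161) and that of Stat2 without CT4, CT20 or CT24. With library totals, 3 genes of this list were called positive and 2 negative. Not all members leaned this way: Ifit2, an RNA-binding relative of Ifit1, fell in the liver (-0.54) and had a kidney value of -0.26.

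Of 15 interferon-induced GTPases, which attack vacuoles that hold pathogens, 13 fell in the liver and 13 did in the kidney, beside 12.4% and 1.92% of all genes. Their medians were -0.81 and -0.90. The organ difference was positive for 4, beside 5.46% of all genes. Irgm1, a regulatory GTPase of the family, ran from 66.7 over 113 to 213 CPM in kidney CON and from 46.9 over 62.5 to 73.1 CPM in kidney SD. Its log2 change was -0.93 ± 0.09 in the kidney and -0.46 ± 0.09 in the liver, and the organ difference was 0.47 ± 0.13 (adjusted p = 0.0203). The other 3 were Iigp1 (0.88), Gm4841 (1.10) and Gm4951 (0.61), members of the same GTPase family. The call of Gm4841 was lost without CT24 (adjusted p = 0.0539). That of Irgm1 was lost with library totals and without CT8 or CT16, at adjusted p-values up to 0.0843. That of Iigp1 was lost with library totals, without CT4, CT8, CT12, CT16 or CT24 and without any of 5 single libraries, up to 0.0801. The guanylate-binding proteins of the list lay near the line of equal change, as with Gbp3, at -0.89 (liver) and -0.90 (kidney). With library totals, 2 of the 15 were called positive and 1 negative. Many of these genes have close copies in the genome, and reads shared between copies were not counted, so their levels are uncertain.

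The promoters of 3 of these genes are shown because they hold the core letters of the interferon-stimulated response element, the sequence that STAT and IRF proteins bind. They are the 200 bases before the transcription start from RefSeq on GRCm38.p6, 5′ to 3′ on the strand of the gene, and capitals mark each match, on either strand, to GAAA followed by any 2 bases (N) and a further GAAA. Irgm1 is at chr11:48871421-48871620 on the minus strand, Bst2 at chr8:71537473-71537672 on the minus strand and Ifit1 at chr19:34640689-34640888 on the plus strand.
Irgm1: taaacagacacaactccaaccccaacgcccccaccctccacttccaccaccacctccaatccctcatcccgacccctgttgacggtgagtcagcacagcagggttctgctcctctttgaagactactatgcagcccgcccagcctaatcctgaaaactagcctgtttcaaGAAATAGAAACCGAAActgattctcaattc
Bst2: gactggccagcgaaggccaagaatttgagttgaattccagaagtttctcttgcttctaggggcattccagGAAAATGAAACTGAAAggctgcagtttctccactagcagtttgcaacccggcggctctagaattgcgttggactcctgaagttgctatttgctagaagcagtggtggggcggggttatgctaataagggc
Ifit1: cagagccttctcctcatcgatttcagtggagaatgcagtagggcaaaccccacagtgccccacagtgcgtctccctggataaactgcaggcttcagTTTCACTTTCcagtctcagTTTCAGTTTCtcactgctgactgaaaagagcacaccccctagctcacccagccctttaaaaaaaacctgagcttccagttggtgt
In Irgm1 and Bst2 the matches share letters, and in Ifit1 both lie on the opposite strand and are set apart. The letters were found in the promoters of 8 of 8 GTPases, 7 of 16 interferon-stimulated genes and 4 of 17 class I genes that had a promoter in the table, and in 3.99% of the 27025 genes there. Among genes of these 3 lists they were found for 5 of the 8 with a called organ difference and for 14 of the 33 without one.

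The levels of leukocyte markers are given beside these genes. The summed level of 19 macrophage and dendritic cell markers ran in the kidney from 211 over 224 to 342 CPM in CON and from 167 over 187 to 219 CPM in SD. In the liver it ran from 1194 over 1644 to 2379 CPM in CON and from 833 over 1208 to 1393 CPM in SD. Cd68, a defining marker of macrophages, was listed at 0 in all 48 libraries. The sum of 13 T and NK cell markers had medians of 29.3 and 18.7 CPM in kidney CON and SD, and of 38.6 and 20.4 CPM in liver CON and SD. The part of these cells in the fall of the MHC and interferon genes was not tested.

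C4b and Pigr, of complement and of secretion, fell in the kidney without a called change in the liver. C4b (ENSMUSG00000073418, chromosome 17, 34728380 to 34743882), a complement component made mostly by hepatocytes, ran from 32.0 over 57.1 to 85.9 CPM in kidney CON and from 9.83 over 19.5 to 49.7 CPM in kidney SD. In the liver it ran from 2350 over 2946 to 3364 CPM in CON and from 2395 over 2884 to 3239 CPM in SD. The kidney SD libraries were mostly below the CON libraries with some overlap, while the liver groups covered the same range. The log2 change was -1.35 ± 0.16 in the kidney (adjusted p = 4.27e-07) and 0.13 ± 0.16 in the liver (adjusted p = 0.572), and the organ difference was 1.49 ± 0.23 (adjusted p = 7.41e-05).

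Pigr, the receptor that carries immunoglobulin A across epithelia, ran from 84.4 over 163 to 372 CPM in kidney CON and from 50.3 over 87.7 to 124 CPM in kidney SD. Its log2 change was -0.98 ± 0.14 in the kidney and 0.15 ± 0.14 in the liver, with an organ difference of 1.13 ± 0.20 (adjusted p = 0.000485). H2-DMb2, a chain of the class II peptide editor, fell by 2.15 on the log2 scale in the kidney and by 0.74 in the liver, an organ difference of 1.42 ± 0.34 (adjusted p = 0.00823). Its levels were low, with medians of 6.53 and 1.66 CPM in kidney CON and SD and of 1.83 and 0.925 CPM in liver CON and SD. C1ra, a serine protease of the first complement component that was chosen after its values were seen, had a log2 change of -0.47 in the kidney and 0.06 in the liver (organ difference 0.53).

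A rise in the liver together with a fall in the kidney passed for 6 genes, of which the 5 that had a symbol and a mean of at least 1 CPM in both organs are named here. Cfi, the protease that inactivates the complement fragments C3b and C4b, ran from 10.1 over 11.6 to 14.2 CPM in kidney CON and from 5.32 over 7.62 to 12.4 CPM in kidney SD. In the liver it ran from 628 over 748 to 801 CPM in CON and from 665 over 771 to 852 CPM in SD. The log2 changes were -0.64 ± 0.08 in the kidney (adjusted p = 3.06e-07) and 0.21 ± 0.07 in the liver (adjusted p = 0.0243), with an organ difference of 0.85 ± 0.10 (adjusted p = 1.92e-06). C1s1, another protease of the first complement component, had log2 changes of 0.17 in the liver and -0.24 in the kidney. Bmp1, a procollagen protease, had 0.34 and -0.20. Dpep1, a dipeptidase of the proximal tubule brush border, had 0.38 and -0.30, and its liver level was near 1 CPM. Ces2g, a carboxylesterase, had 0.20 and -0.28. With library totals the median liver change of all genes moved from 0.00 to -0.13, against which several of these liver rises are small.

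Several of the most negative organ differences lay in or beside genes of detoxifying enzymes, although the lists of such enzymes moved both ways. Gstm1 (ENSMUSG00000058135, chromosome 3, 108012255 to 108017973), a glutathione S-transferase of the mu class, ran from 907 over 1788 to 3266 CPM in liver CON and from 412 over 577 to 1034 CPM in liver SD. In the kidney it ran from 191 over 208 to 259 CPM in CON and from 209 over 252 to 290 CPM in SD. The liver groups overlapped only at their edges and the kidney groups overlapped widely. The log2 change was -1.50 ± 0.14 in the liver (adjusted p = 1.52e-09) and 0.17 ± 0.14 in the kidney (adjusted p = 0.845), and the organ difference was -1.67 ± 0.20 (adjusted p = 1.26e-06).

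Cyp2a4 (ENSMUSG00000074254, chromosome 7, 26307169 to 26315088), a steroid hydroxylase of the P450 family, had the most negative organ difference of the genes named, -2.79 ± 0.45 (adjusted p = 0.000143). It ran from 13.7 over 66.0 to 687 CPM in liver CON and from 2.15 over 16.7 to 67.0 CPM in liver SD, and its kidney medians were 51.2 and 53.3 CPM. The liver libraries overlapped and spread widely, and at CT20 the liver change was -0.20, against -0.997 to -3.96 at the other 5 CT. Gm42375, an antisense transcript that overlaps the start of Cyp2a4, had an organ difference of -2.39. Cbr3, a carbonyl reductase, had medians of 3.46 and 0.731 CPM in liver CON and SD and of 1.41 and 1.34 CPM in the kidney, with an organ difference of -2.05 ± 0.31 (adjusted p = 7.88e-05). Gm12497, a processed pseudogene close to Gstm1, had an organ difference of -1.75, and reads of related transferase copies may be shared between both.

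Of 20 glutathione, glucuronosyl and sulfo transferases, 4 rose and 5 fell in the liver and 1 fell in the kidney, beside 14.4%, 12.4% and 1.92% of all genes. The organ difference was negative for 4, beside 3.84% of all genes. These were Gstm1, Gsta2 (-1.48), Gsta4 (-0.61) and Gstm4 (-0.58), which encode glutathione transferases. A positive organ difference was called for 2, beside 5.46% of all genes. Among them was the theta class transferase Gstt2 (0.39), whose call was lost without any of 27 single libraries. The calls of Gsta4 and Gstm4 were lost without CT20 and CT24 in turn, at adjusted p-values of 0.062 and 0.0662. Gsta2 was the exception in level, with medians of 10.3 and 3.02 CPM in liver CON and SD and of 111 and 109 CPM in the kidney. Of 10 cytochrome P450 genes, 3 rose and 2 fell in the liver, beside 14.4% and 12.4% of all genes. In the kidney 0 passed (4 did at an unadjusted p under 0.05, and 0 by DESeq2), beside 1.95% of all genes. Their organ difference was positive for 3 and negative for 1, beside 5.46% and 3.84% of all genes. Cyp2e1, which oxidises ethanol and acetone, rose from a median of 3652 to 4896 CPM in the liver, with medians of 472 and 516 CPM in the kidney and an organ difference of 0.42 ± 0.12 (adjusted p = 0.0227), which was lost with library totals and without CT12, CT16 or CT24 at adjusted p-values up to 0.0802. Cyp2d26, another P450, had an organ difference of 0.38, lost without CT4 (adjusted p = 0.0539).

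**Figure D2:**
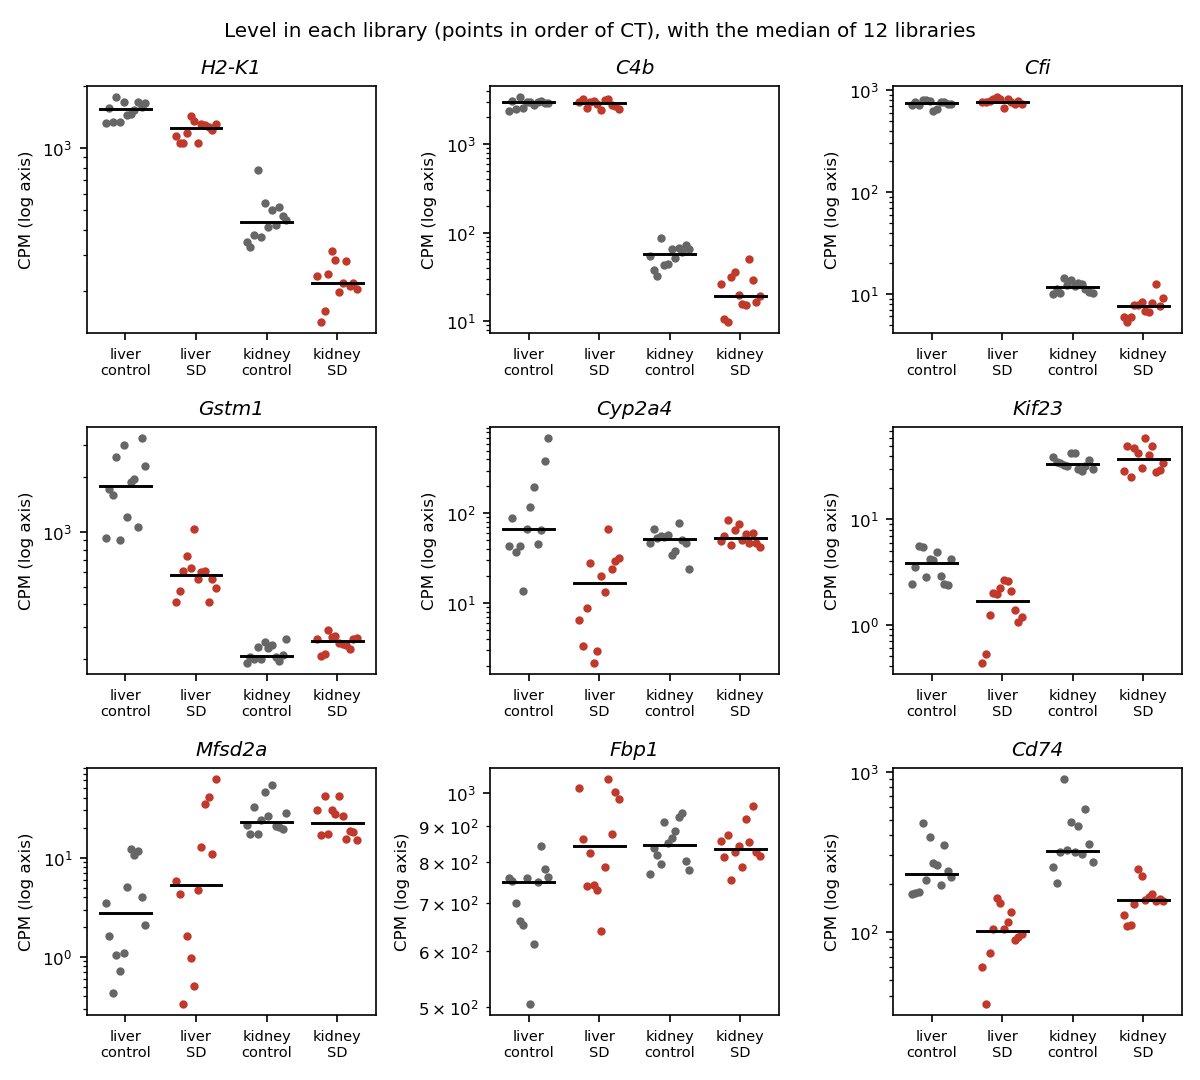
Level in CPM on a log axis of 9 genes in each of the 48 libraries, with points in order of CT and a bar at the median of 12 libraries, for liver and kidney in CON (grey) and SD (red). H2-K1 separates CON from SD in the kidney, Gstm1 and Kif23 separate mainly in the liver, Fbp1 shifts upward in the liver with overlap, and Cd74 shifts in both organs.

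Genes of cell division fell in the liver. All 23 mitotic and replication genes tested fell there, beside 12.4% of all genes, with a median log2 change of -0.92. In the kidney 0 of 23 passed, beside 1.92% of all genes that fell there, and the median was -0.29 (10 at an unadjusted p under 0.05, and 0 by DESeq2). A negative organ difference was called for 6 of the 23, beside 3.84% of all genes, and for 20 of 23 with library totals. Kif23, a kinesin of the midbody, ran from 2.35 over 3.82 to 5.54 CPM in liver CON and from 0.433 over 1.67 to 2.65 CPM in liver SD. Kidney values ran from 28.9 over 33.6 to 42.8 CPM in CON and from 25.3 over 37.9 to 59.1 CPM in SD. The organ difference was -1.25 ± 0.21 (adjusted p = 0.000205).

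Mki67, a protein of dividing cells, ran from 16.6 over 24.6 to 56.2 CPM in liver CON and from 4.04 over 10.5 to 26.5 CPM in liver SD, with medians of 38.4 and 34.3 CPM in the kidney. Its log2 change was -1.11 in the liver and -0.32 in the kidney, an organ difference of -0.79 ± 0.23 (adjusted p = 0.0254), which was lost without CT4, CT8, CT16 or CT20 at adjusted p-values up to 0.103. The mitotic kinase Aurkb (-0.89), the spindle midzone protein Prc1 (-0.84), the replicative helicase subunit Mcm6 (-0.50) and the thymidylate synthase Tyms (-0.31) were the others. Their calls were no firmer, since that of Prc1 was lost without any of 5 CT, those of Aurkb and Mcm6 without any of 3, and that of Tyms without CT20 or CT24 and with no filter on low counts, at adjusted p-values up to 0.0916. Top2a, a topoisomerase of dividing cells, had -1.19 in the liver and -0.52 in the kidney, and the interval of its organ difference ran from -1.14 to -0.21 with an adjusted p of 0.0552. Which cells carried these transcripts was not measured.

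The promoters of Mki67 and Mcm6 are shown because they hold the CCAAT box, which NF-Y binds in many cell cycle genes. They are again the 200 bases before the start in RefSeq on GRCm38.p6, 5′ to 3′, with CCAAT on either strand in capitals. Mki67 is at chr7:135716380-135716579 and Mcm6 at chr1:128359706-128359905, both on the minus strand.
Mki67: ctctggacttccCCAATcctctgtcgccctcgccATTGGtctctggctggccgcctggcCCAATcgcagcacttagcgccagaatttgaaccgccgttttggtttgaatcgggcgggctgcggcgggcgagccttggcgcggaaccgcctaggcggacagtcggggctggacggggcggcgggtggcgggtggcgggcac
Mcm6: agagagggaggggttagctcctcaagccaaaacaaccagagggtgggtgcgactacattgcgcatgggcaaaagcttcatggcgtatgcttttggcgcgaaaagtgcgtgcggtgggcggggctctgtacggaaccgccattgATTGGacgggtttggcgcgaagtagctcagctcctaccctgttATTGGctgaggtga
The box was found for 17 of 19 mitotic and replication genes with a promoter in the table, and for 41.1% of all 27025 genes.

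A fall in both organs was called for 12 of 15 macrophage and dendritic cell markers and 6 of 13 T and NK cell markers. It was called for 1 of 12 B cell and 0 of 5 neutrophil markers, beside 1.54% of all genes. In lists this small, few or no called organ differences are no result about the lists. Csf1r, the receptor that macrophages need to survive, ran from 224 over 275 to 378 CPM in liver CON and from 140 over 204 to 223 CPM in liver SD, with no overlap. In the kidney it ran from 65.9 over 71.1 to 87.5 CPM in CON and from 62.3 over 72.7 to 91.0 CPM in SD, with almost full overlap. The log2 change was -0.44 ± 0.07 in the liver (adjusted p = 1.27e-05) and -0.05 ± 0.07 in the kidney (adjusted p = 0.943), and the organ difference was -0.39 ± 0.10 (adjusted p = 0.0118), which was lost without CT4 or CT24 at adjusted p-values up to 0.0576. It was the only called organ difference among the 15 macrophage and dendritic cell markers tested, beside 9.31% of all genes. Of the 15, 14 fell in the liver and 12 did in the kidney, beside 12.4% and 1.92% of all genes, with medians of -0.57 and -0.53.

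H2-Eb1, a chain of the class II molecule, ran from 71.0 over 104 to 188 CPM in liver CON and from 18.7 over 38.7 to 60.1 CPM in liver SD. In the kidney it ran from 73.8 over 104 to 171 CPM in CON and from 50.9 over 64.5 to 72 CPM in SD. The groups did not overlap in either organ, and the gene fell by 1.44 in the liver and by 0.78 in the kidney, an organ difference of -0.66 ± 0.19 (adjusted p = 0.0211), which was lost without CT4, CT16 or CT24 at adjusted p-values up to 0.111. Of 11 class II genes, 10 fell in the liver and 8 in the kidney, beside 12.4% and 1.92% of all genes. The median was -0.89 in both organs. H2-Eb1 and H2-DMb2 were the only called organ differences, with opposite signs, beside 9.31% of all genes.

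Of 13 T and NK cell markers, 9 fell in the liver and 6 did in the kidney, beside 12.4% and 1.92% of all genes, with medians of -0.70 and -0.62. Of 12 B cell markers, 10 fell in the liver and 1 did in the kidney, with medians of -0.51 and -0.17, and of 5 neutrophil markers 5 fell in the liver; the kidney had 0 (1 at an unadjusted p under 0.05, and 0 by DESeq2), with medians of -0.88 and -0.29. The edgeR organ difference passed for 0 genes of these 3 lists, beside 9.31% of all genes. In the T and NK cell, B cell and neutrophil lists, 1, 2 and 2 genes had an unadjusted p under 0.05 and DESeq2 called 0, 1 and 0. Csf3r, the receptor for the neutrophil growth factor, had -0.75 in the liver and -0.29 in the kidney, and its organ difference of -0.47 had an adjusted p of 0.0561.

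Genes of glucose and amino acid metabolism were among the 2664 that rose in the liver. In the kidney only 6 of all genes rose in the single fit over both organs, so a count of 0 rises there is no result about a list. Of 11 genes of gluconeogenesis and glycogen, 8 rose in the liver and 0 passed in the kidney, by edgeR at an unadjusted p under 0.05 and by DESeq2 alike, with medians of 0.32 and -0.06. The organ difference was positive for 5, and for 3 with library totals, while over all genes 14.4% rose in the liver and 5.46% had a positive organ difference. Fbp1, which takes the phosphate off fructose 1,6-bisphosphate, ran from 505 over 750 to 843 CPM in liver CON and from 640 over 843 to 1047 CPM in liver SD. Kidney values ran from 768 over 845 to 937 CPM in CON and from 754 over 835 to 960 CPM in SD. The liver groups overlapped, and the organ difference was 0.42 ± 0.08 (adjusted p = 0.00125). The other 4 were Pcx, pyruvate carboxylase (0.39), Slc37a4, the glucose 6-phosphate transporter (0.43), Slc2a2, a glucose transporter (0.46), and Gys2, the liver glycogen synthase (0.31). The calls of Slc37a4 and Gys2 were lost with library totals and without CT20, and also without CT24 and CT12 in turn, at adjusted p-values up to 0.0873 and 0.148. Pck1, which commits oxaloacetate to glucose synthesis, had 0.73 in the liver and -0.01 in the kidney, but with liver values from 330 to 2251 CPM in CON its organ difference of 0.74 had an adjusted p of 0.0679.

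Of 12 genes of the urea cycle and ammonia handling, 8 rose in the liver and 0 passed in the kidney (1 did at an unadjusted p under 0.05, and 0 by DESeq2), with medians of 0.31 and -0.07, and the organ difference was positive for 6, beside 14.4% of all genes higher in the liver and 5.46% with a positive organ difference. These were Ass1, which makes argininosuccinate (0.42), Asl, which splits it (0.42), the mitochondrial carriers Slc25a13 (0.47) and Slc25a15 (0.42), ornithine aminotransferase Oat (0.48) and glutamine synthetase Glul (0.35). Ass1 stood at a higher level in the kidney, where it takes part in arginine synthesis, with medians of 1801 and 1784 CPM in CON and SD, against 1398 and 1693 CPM in the liver. Oat ran from 256 over 339 to 442 CPM in liver CON and from 310 over 455 to 550 CPM in liver SD, and its kidney medians were 229 and 226 CPM. With library totals, 4 of the 12 were called, all positive, and the calls of Ass1 and Glul were lost there and without some CT, at adjusted p-values up to 0.0706 and 0.115.

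Of 20 fasting and ketogenesis genes under PPAR alpha, 14 rose in the liver and 1 did in the kidney, beside 14.4% and 0.0324% of all genes. Their medians were 0.28 and 0.10. The organ difference was positive for 4, beside 5.46% of all genes. Among them were the carnitine palmitoyltransferases Cpt1a (0.33) and Cpt2 (0.31) and the transcription factor Creb3l3 (0.39). With library totals 1 gene of the list was positive and 2 negative. The calls of Cpt1a and Creb3l3 were lost with library totals and without CT20, and that of Creb3l3 also without CT8 or CT12, at adjusted p-values up to 0.0743 and 0.119. Cpt1a ran from 285 over 394 to 601 CPM in liver CON and from 316 over 441 to 811 CPM in liver SD, with kidney medians of 516 and 528 CPM. Angptl4, an inhibitor of lipoprotein lipase, had 0.91 in the liver and 0.18 in the kidney, and its organ difference of 0.72 had an adjusted p of 0.0938. Of 8 bile acid genes, 4 rose and 1 fell in the liver and 1 fell in the kidney, beside 14.4%, 12.4% and 1.92% of all genes. Slc10a1, which takes bile acids into hepatocytes, rose from a median of 373 to 450 CPM in the liver, with an organ difference of 0.52, and Baat, which conjugates bile acids, had 0.53 with a fall in the kidney at a median of 4.85 CPM in CON.

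**Figure D3:**
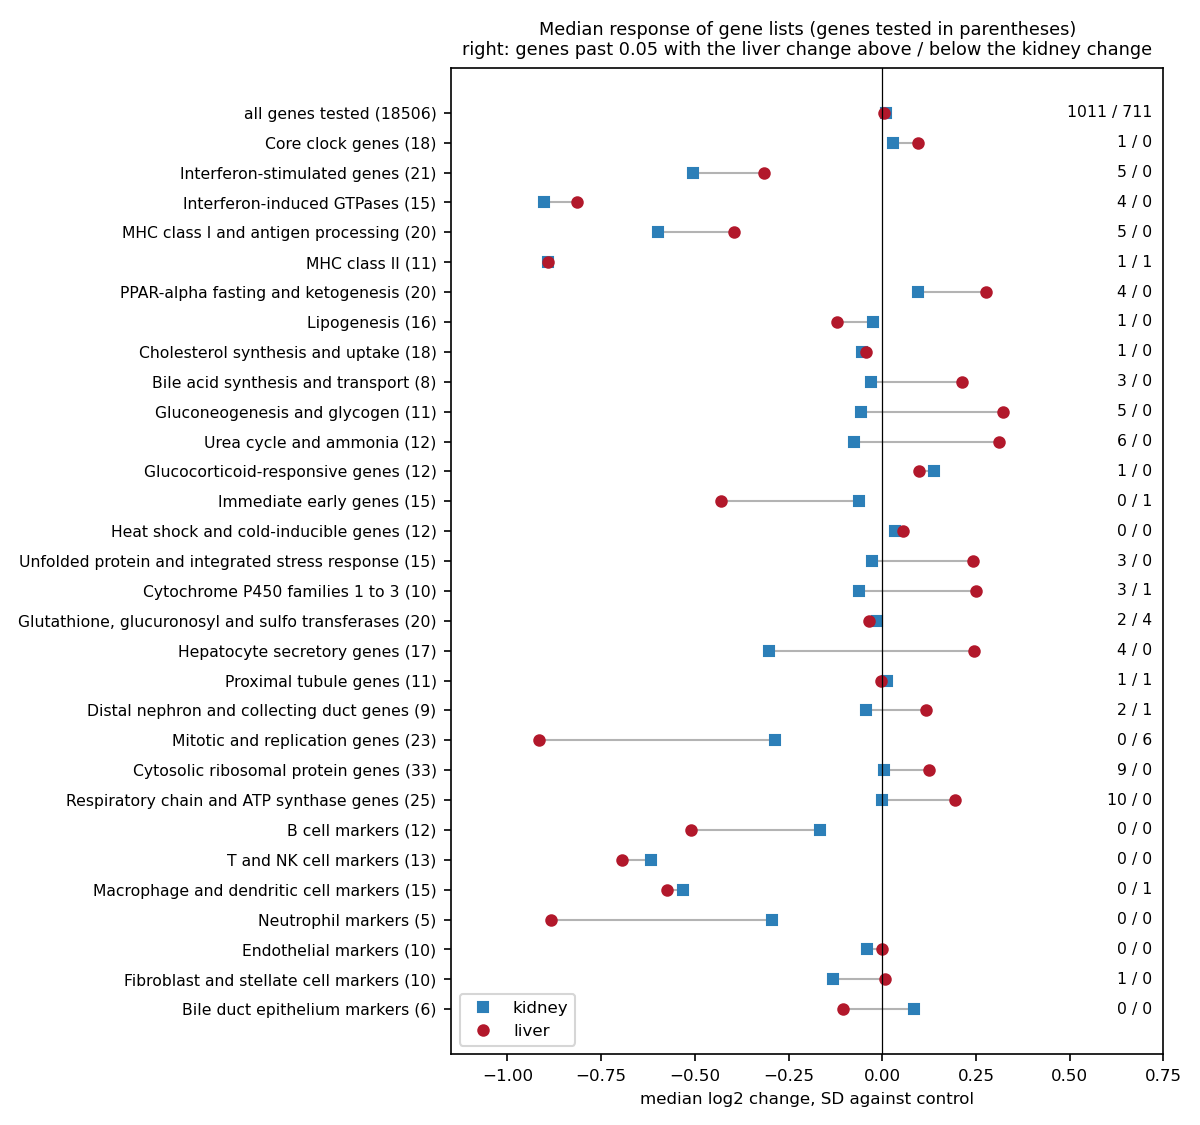
Median log2 change under SD of the gene lists with at least 5 genes tested, in liver (red circles) and kidney (blue squares), with the number of genes tested in parentheses and, at the right, the genes with a positive and a negative organ difference. Mitotic genes lie at -0.92 in the liver and -0.29 in the kidney, gluconeogenesis and urea cycle genes lie above 0 in the liver alone, and MHC class II genes lie at -0.89 in both.

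Mfsd2a, a carrier of lysophosphatidylcholine that rises in the fasted liver, had the largest positive organ difference of the named genes, 1.6 ± 0.45 (adjusted p = 0.0209). It ran from 0.428 over 2.79 to 12.3 CPM in liver CON and from 0.337 over 5.26 to 61.8 CPM in liver SD, and its kidney medians were 22.7 and 22.4 CPM. The liver libraries overlapped fully at the low end, and the change was uneven over the 6 CT, with 3.77 at CT24, 1.86 at CT20 and -0.18 at CT12. Without CT20 the organ difference was 1.42 (adjusted p = 0.119) and without CT24 it was 0.95 (adjusted p = 0.123). The ribosomal protein gene Rpl30 (1.04) and the pseudogene Gm9791 (1.01) were named by the same rule, and the liver change of Gm9791 did not pass the test by itself (adjusted p = 0.0675). Both have near-identical copies in the genome, so their counts are uncertain. The call of Gm9791 was lost without any of 27 single libraries, and that of Rpl30 without CT4, CT8 or CT24 at adjusted p-values up to 0.14.

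Of 33 cytosolic ribosomal protein genes, 20 rose in the liver and 0 passed in the kidney, with medians of 0.12 and 0.01, and of 25 respiratory chain and ATP synthase genes, 17 rose in the liver and 0 passed in the kidney, with medians of 0.20 and 0.00. The kidney counts at an unadjusted p under 0.05 were 1 and 0, and DESeq2 called 0 in both lists. The organ difference was positive for 9 ribosomal and for 10 respiratory genes. Of all genes, 14.4% rose in the liver and 5.46% had a positive organ difference. These rises are small, as for the succinate dehydrogenase subunit Sdhb (organ difference 0.34). With library totals, 1 and 3 genes were called, and the median of the ribosomal genes in the liver was -0.01, so that their direction depended on the scaling. Of 15 genes of the unfolded protein response, 5 rose in the liver and 0 passed in the kidney (2 did at an unadjusted p under 0.05, and 1 by DESeq2), with medians of 0.24 and -0.03, and the organ difference was positive for 3, among them Pdia6, a disulfide isomerase (0.38), and for 1 with library totals.

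**Figure D4:**
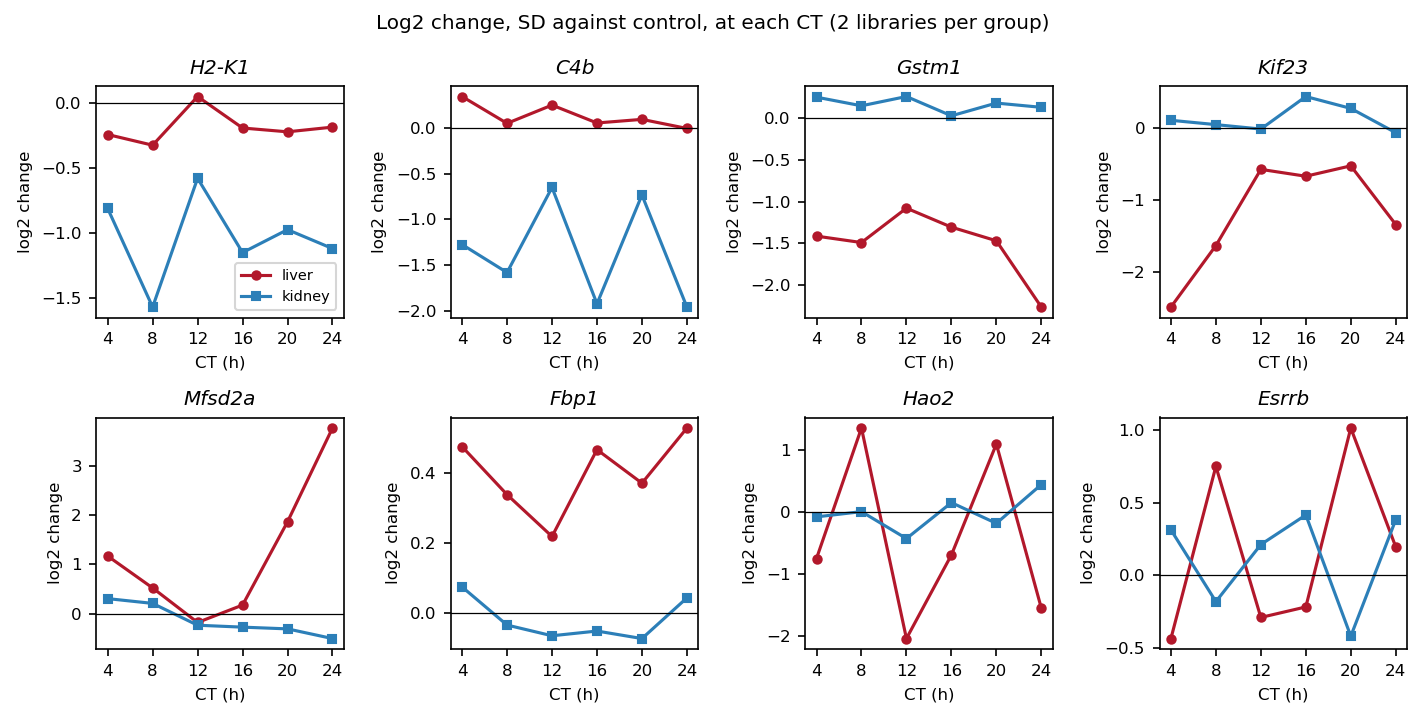
Log2 change under SD at each of the 6 CT (horizontal axis, in h) for 8 genes, in liver (red circles) and kidney (blue squares), from 2 libraries per group. H2-K1 and C4b lie lower in the kidney at every CT, Gstm1 and Kif23 lie lower in the liver, and the liver change of Mfsd2a is largest at CT20 and CT24.

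Some called organ differences rested on traces of a gene of the other organ. Among 17 hepatocyte secretory genes the organ difference was positive for 4, beside 5.46% of all genes. They included Itih4, a plasma protease inhibitor chain (1.16), and the fibrinogen chains Fgb (0.73) and Fgg (0.51), none of which passed in either organ alone. Itih4 stood at medians of 2444 and 2743 CPM in liver CON and SD and of 1.78 and 0.849 CPM in the kidney. Bhmt, which remethylates homocysteine, had an organ difference of 0.94 with kidney medians of 2.22 and 1.89 CPM. The summed hepatocyte genes ran in the kidney from 226 over 297 to 420.006 CPM in CON and from 202 over 239 to 384 CPM in SD. The calls of Itih4, Bhmt, Fgg and Fgb were lost without any of 13, 23, 22 and 2 single libraries in turn. Whether hepatocyte RNA in the kidney samples had a part in these values was not tested. In the other direction, the kidney genes Napsa, an aspartic protease (-0.97), Calb1, a calcium buffer of the distal tubule (0.54), and Trpm6, a magnesium channel (0.72), were called on liver levels with medians in CON of 2.26, 4.76 and 0.75 CPM. Slc22a7, an organic anion transporter of both organs, rose in the liver from a median of 45.8 to 71.8 CPM (organ difference 0.64, lost without any of 23 single libraries).

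Negative organ differences in which the kidney change was the larger were few, 23 of 711. The named ones were Gm24989 (-0.77), Gm37738 (-0.75), Gm43571 (-0.62) and Gm35857 (-0.60), all without a known role. Each had a rise of 0.33 to 0.40 as the kidney estimate and a fall of 0.26 to 0.38 as the liver estimate, and neither value passed the test. The calls of Gm43571 and Gm35857 were lost without any of 30 and 11 single libraries, that of Gm24989 without CT8 and that of Gm37738 without CT24.

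Sleep deprivation also changed a set of genes in the same direction in both organs. These were 287 genes (1.55%), of which 285 (1.54%) fell and 2 rose. For 269 of the 285 the organ difference did not pass, the kidney fell more for 10 and the liver for 6. Cd74, the invariant chain of class II molecules, ran from 172 over 228 to 479 CPM in liver CON and from 35.5 over 100 to 163 CPM in liver SD, with no overlap. In the kidney it ran from 202 over 318 to 895 CPM in CON and from 108 over 157 to 248 CPM in SD. It fell by 1.28 in both organs, and the 95% interval of the organ difference ran from -0.48 to 0.48.

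H2-Ab1, a class II chain, fell by 1.39 in the liver and by 1.43 in the kidney, with an interval of the organ difference from -0.44 to 0.52. BC023105, a gene related to the interferon-induced GTPases, had the largest shared fall of the genes named, by 2.0 on the log2 scale in the liver and by 2.23 in the kidney, and the interval of the organ difference ran from -0.75 to 1.21. The GTPases Igtp (-1.05 in the liver and -1.40 in the kidney) and Tgtp2 (-1.25 and -1.17), the granzymes Gzma (-1.37 and -1.12) and Gzmb (-1.37 and -1.24), which are proteases of cytotoxic lymphocytes, and Ly6c2 (-0.98 and -0.95), a surface protein of monocytes and T cells, fell as well, and the kidney call of Gzmb was lost without CT16 (adjusted p = 0.0739). The intervals of Cd74, H2-Ab1 and BC023105 leave room for an organ difference like the one called for Irgm1 (0.47). Of these, only that of BC023105 leaves room for one like that of H2-Eb1 (-0.66).

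**Figure D5:**
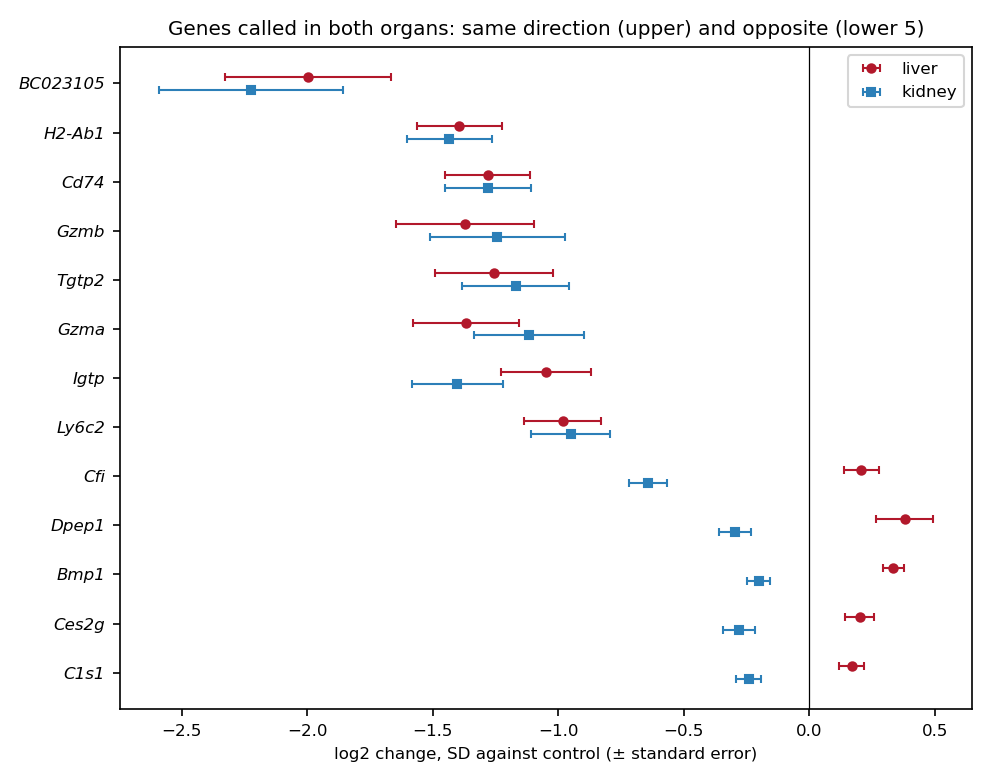
Log2 change under SD with its standard error in liver (red circles) and kidney (blue squares) for 8 named genes that fell in both organs and the 5 that changed in opposite directions. The 8 genes from BC023105 to Ly6c2 lie near -1 or below in both, and Cfi, Dpep1, Bmp1, Ces2g and C1s1 lie above 0 in the liver and below it in the kidney.

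An organ difference at any of the 6 CT, tested jointly, passed for 81 genes (0.438%), of which 75 also passed for the mean over CT. This count depended on the liver SD library that stood apart, since 812 genes passed without it, and DESeq2 called 654 with it. Hao2, a peroxisomal hydroxyacid oxidase, had organ differences of 1.34 and 1.28 at CT8 and CT20 and between -0.67 and -1.99 at the other 4 CT (joint adjusted p = 0.00444). It stood at medians of 2.07 and 1.25 CPM in liver CON and SD and of 197 and 186 CPM in the kidney, so that the changing side was the one at trace level. Esrrb, an orphan nuclear receptor, was likewise at 1.29 and 1.10 CPM in the liver and at 39.2 and 41.4 CPM in the kidney (joint adjusted p = 0.0226). Ppa1, a pyrophosphatase, was abundant in both, with organ differences from -0.32 at CT20 to 0.89 at CT24 (joint adjusted p = 0.0197). Lyve1, a hyaluronan receptor of sinusoidal and lymphatic endothelium, had kidney changes of -1.14 at CT16 and -1.29 at CT24 and liver changes of 0.45 and 0.32 there (joint adjusted p = 0.0455). The call of Lyve1 was lost without any of 35 single libraries, that of Ppa1 without any of 3 and that of Esrrb without any of 2. A single CT rests on 2 libraries per group.

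Lists that follow the time of day, stress or lipid synthesis had 0 or 1 called organ difference each, which in lists of 12 to 18 genes is close to the 9.31% of all genes and is no result about the lists. Of 18 core clock genes, 3 rose in the liver and 0 passed in the kidney (1 did at an unadjusted p under 0.05, and 0 by DESeq2), and only Hlf, an output factor of the clock, had a called organ difference (0.28), which was lost without any of 12 single libraries. The log2 changes of Arntl, which drives the clock, were 0.00 (liver) and 0.01 (kidney), with an interval of the organ difference from -0.35 to 0.34. Changes of opposite sign at single CT cancel in such a mean. At CT20 Arntl had -0.62 in the liver and 0.44 in the kidney, an organ difference of -1.06, against 0.41 at CT12. The joint test at any CT passed for 0 of the 18 clock genes. Of 12 glucocorticoid-responsive genes, only Klf9, a transcription factor that the glucocorticoid receptor induces, was called (0.37). Its call was lost with library totals and without CT8, CT12, CT16 or CT20, at adjusted p-values up to 0.132. The call was also lost without 1 single library. Fkbp5, a chaperone that the receptor induces, had 0.19 in the liver and 0.16 in the kidney. Of 15 immediate early genes, 7 fell in the liver, beside 12.4% of all genes, and 0 passed in the kidney (2 did at an unadjusted p under 0.05, and 0 by DESeq2). The medians were -0.43 in the liver, -0.06 in the kidney and -0.38 for the organ difference. A negative organ difference was called for 1, which lay under 1 CPM in the liver (5 at an unadjusted p under 0.05, and 4 called with library totals). Fos, the best known of them, had -0.91 in the liver and -0.63 in the kidney, a larger kidney fall than the list median. Among 12 heat shock and cold-inducible genes, 0 passed in either organ or for the difference by edgeR. At an unadjusted p under 0.05 there were 1 in the liver, 0 in the kidney and 0 for the difference, and DESeq2 called 1 in the liver. The 18 genes of cholesterol synthesis and the 16 of lipogenesis had 1 called organ difference each, in Srebf2 (0.22, lost with library totals and without CT8, CT20 or CT24, at adjusted p-values up to 0.424), a regulator of sterol synthesis, and Fads2 (0.24, lost without any of 12 single libraries), a fatty acid desaturase.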

How the data were processed

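RNA from 24 liver and 24 kidney libraries was measured as total RNA (ribosomal RNA removed, stranded TruSeq libraries). The authors trimmed reads with Trim Galore 0.6.4, aligned them to GRCm38 with HISAT2 2.1.0, filtered alignments with SAMtools 1.9 at a mapping quality of 60, and assigned reads to genes with featureCounts 1.6.4. The values they deposited are raw, unnormalized counts of reads for each gene. Reads that align to several places are lost under this quality filter, so genes with near-identical copies are undercounted. Groups came from the sample titles.

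Symbols and positions came from GENCODE M21 and promoters from RefSeq (GRCm38.p6). Genes were kept by filterByExpr in both organs, leaving 18506 that held at least 96.8% of the counts of every library. The 48 libraries were scaled by TMM and fitted with edgeR 4.0.16 in R 4.3.3 (quasi-likelihood F test, Benjamini-Hochberg over all genes tested), with a level for each organ and CT and an SD effect for each organ, leaving 34 residual degrees of freedom. The joint test fitted the means of all 24 groups (organ, CT and condition). The SE is the log2 change over the square root of F. The script was tested on simulated counts. At 32.0 M counts, 1 CPM is about 32 reads. Counting error weighs more for genes near this level, and it was not compared with the spread between libraries. Motifs were exact matches on both strands, within the bases around the start that the promoter table holds.

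The organ difference, the gene lists and the naming rule were chosen with earlier results of these data known. The rule named genes with a symbol and at least 1 CPM in both organs, namely the largest called organ differences with the same sign at 5 or more CT (split by which organ moved more), the largest shared changes, those opposite in direction, the smallest p-values at any CT alone, and list members with a called organ difference plus a few that a list is known by. Alternatives were library totals, TMM within each organ, other filters, DESeq2 1.42.0, group means, a replicate block, and leaving out each CT or library, and limma 3.58.1 with organ weights and separate fits per organ were added after seeing the data. A few genes that the rule named are not reported here.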

Additional observations from a re-analysis of the deposited data

Results flagged for a closer look

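The results below were flagged because the effect of SD differed between liver and kidney by a test of the difference itself (edgeR). They are the 1722 genes for the mean over CT, the 81 genes for any CT and the named genes among them, each given as the liver log2 change minus the kidney log2 change. No outlier test of single libraries was run on groups of 2 or 12.

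Among immune and complement genes the values were 1.49 for C4b, 1.42 for H2-DMb2, 1.13 for Pigr, 1.10 for Gm4841, 0.88 for Iigp1, 0.85 for H2-K1, 0.85 for Cfi, 0.61 for Bst2, 0.61 for Gm4951, 0.56 for H2-D1, 0.55 for Nlrc5, 0.53 for C1ra, 0.47 for Irgm1, 0.45 for Dtx3l, 0.44 for Parp9, 0.42 for Ifit1, 0.41 for C1s1, 0.41 for Erap1, 0.37 for Tap2, 0.35 for H2-T23 and 0.35 for Stat2, and they were -0.66 for H2-Eb1 and -0.39 for Csf1r.

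Among detoxification genes they were -2.79 for Cyp2a4, -2.39 for Gm42375, -2.05 for Cbr3, -1.75 for Gm12497, -1.67 for Gstm1, -1.48 for Gsta2, -0.61 for Gsta4, -0.58 for Gstm4, 0.39 for Gstt2, 0.42 for Cyp2e1, 0.38 for Cyp2d26 and 0.48 for Ces2g. Among genes of cell division they were -1.25 for Kif23, -0.89 for Aurkb, -0.84 for Prc1, -0.79 for Mki67, -0.50 for Mcm6 and -0.31 for Tyms.

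Among metabolic genes they were 1.6 for Mfsd2a, 0.94 for Bhmt, 0.53 for Baat, 0.52 for Slc10a1, 0.48 for Oat, 0.47 for Slc25a13, 0.46 for Slc2a2, 0.43 for Slc37a4, 0.42 for Fbp1, Ass1, Asl and Slc25a15, 0.39 for Pcx and Creb3l3, 0.35 for Glul, 0.34 for Sdhb, 0.33 for Cpt1a, 0.31 for Cpt2 and Gys2, 0.24 for Fads2 and 0.22 for Srebf2. Among the remaining genes they were 1.16 for Itih4, 1.04 for Rpl30, 1.01 for Gm9791, 0.73 for Fgb, 0.72 for Trpm6, 0.68 for Dpep1, 0.64 for Slc22a7, 0.54 for Bmp1, 0.54 for Calb1, 0.51 for Fgg, 0.38 for Pdia6, 0.37 for Klf9, 0.28 for Hlf, -0.60 for Gm35857, -0.62 for Gm43571, -0.75 for Gm37738, -0.77 for Gm24989 and -0.97 for Napsa.

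At any CT the edgeR adjusted p was 0.00444 for Hao2, 0.0197 for Ppa1, 0.0226 for Esrrb and 0.0455 for Lyve1.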

How the results depend on the processing

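Of the 80 named genes with a called organ difference, 37 were called under all of up to 65 alternatives, 43 lost the call in at least 1, and 0 changed sign. Library totals ended the call for 24, DESeq2 and the fit without the first SD replicate of liver at CT16 for 0, and leaving out at least 1 library for 15. The cause was not tested. For the mean over CT the count was 3091 with library totals (186 positive, 2905 negative) and 2649 with DESeq2 (1784 and 865). It was 1094 without CT4, 959 without CT8, 1102 without CT12, 1024 without CT20 and 991 without CT24, fits that hold fewer libraries. With no filter on low counts, 944 genes passed in the kidney (291 up, 653 down), 492 were shared and 1736 passed at any CT. Without CT16, 189 were shared. At any CT, 243 passed with library totals, 654 with DESeq2, 48 without CT4, 44 without CT12 and 40 without CT24.

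Leaving out 1 library gave 1298 to 3011 genes for the mean over CT, 4339 to 5993 for the liver, 285 to 398 for the kidney, 222 to 303 shared and 53 to 812 at any CT. The highest counts for the mean and any CT came without the first SD replicate of liver at CT16. Counts at any CT also moved without the first CON replicate at CT24 (133), the second CON replicate at CT16 (53) and the first SD replicate at CT8 (53) of liver.

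With the replicate number as a block, 1778 genes passed for the mean over CT, 5037 in the liver, 358 in the kidney, 286 shared and 79 at any CT. This block changed the call of 0 named genes. Same-numbered liver and kidney libraries deviated together with correlations of -0.04 to 0.335, over 0.1 in 3 of 12 groups, so the numbers were not taken to pair the samples, although libraries from the same mouse are not excluded. A block that treats same-numbered liver and kidney libraries as 1 mouse gave 2305 genes for the mean over CT and 70 at any CT, and ended the calls of Itih4, Gstt2, Esrrb and Lyve1.

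Of the alternatives added after seeing the data, limma with organ weights gave 1624 genes, and separate fits per organ gave 3550 in the liver and 485 in the kidney. Genes under 1 CPM in an organ, and low copies of hepatocyte genes in the kidney, are limited by depth.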
